A study of Mus musculus with 6 samples.

Results

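Platelets carry their secreted proteins in alpha granules and their small signalling molecules in dense granules, and both are built in the megakaryocyte before platelets are shed. Cargo is made or taken up by the megakaryocyte, sorted into granules by vesicle-trafficking proteins, and released when Rab GTPases and SNARE proteins bring a granule to the plasma membrane of an activated platelet. Microtubules made with a beta-tubulin particular to this lineage form the proplatelet shaft and the marginal band of the platelet. The genes described here are 10 genes of this programme among the 12101 genes with values: the alpha granule cargo genes *Pf4*, *Ppbp*, *Vwf*, *Selp*, *Thbs1* and *Srgn*, the granule genes *Nbeal2* and *Rab27b*, the cytoskeletal gene *Tubb1* and the signalling gene *Plek*. They were set by name and found through the Ensembl identifier of each symbol in the NCBIM37 annotation. A value was available for 8 of the 10, and all 8 passed the filter on low values. *Ppbp*, which encodes a platelet chemokine, and *Tubb1*, which encodes the beta-tubulin of platelet microtubules, were not analysed here.

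The RNA came from megakaryocyte–erythroid progenitors (MEPs), the bone marrow cells that give rise to megakaryocytes and red blood cells, sorted from adult *Nanog*-tg mice of the CD-1 strain. Sorting used a lineage cocktail and antibodies to cKit, Sca1, CD34 and CD16/32, and MEPs are by convention the lineage-, Sca1- and cKit+ cells that are low for CD34 and CD16/32. All animals carried the same 2 transgenes, R26-M2rtTA, which encodes the doxycycline-dependent activator at a locus active in most tissues, and Col1a1-tetO-*Nanog*, the *Nanog* cDNA that this activator switches on. Treated mice received doxycycline (dox) in the drinking water for 5 days and untreated mice of the same genotype received none, with 3 libraries in each group. An effect of dox itself and an effect of *Nanog* cannot be told apart in this design, and neither can an effect within MEPs and one that reached them from other tissues. The labels number the replicates but do not say whether each came from a separate animal, so p-values measure the spread between these samples, which may be technical.

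Libraries held between 11264803 and 16153600 reads on the listed genes. Values are given as reads and as CPM, counts per 1000000 reads of the authors' normalized library size, in which 1 read was worth 0.0642 to 0.0910 CPM. Intervals on reads cover counting error only. *Nanog* had 17062, 19609 and 15959 reads in treated replicates 1, 2 and 3 and 9, 13 and 1 reads in the untreated replicates, so every library matched its label. On the first principal component of all tested genes, treated replicate 3 lay at -14.8, away from treated replicates 1 and 2 at -57.5 and -56.3 and from the untreated replicates at 35.1 to 54.2. Values without it are given beside several genes and lists, and were chosen after the data had been seen for the lists and for genes other than the 8. Erythroid markers were detected in all libraries. By limma 3 of 21 tested genes were lower and 0 higher, against 3.18% and 4.59% of all genes, and 8 were fully apart lower and 1 higher, against 18.2% and 17.7%. Their summed level was 6978 to 11630 CPM with dox and 9779 to 10270 CPM without dox. Without treated replicate 3 it was 6978 to 7144 CPM with dox, and 12 of the 21 were called lower and 0 higher, against 14% and 14.9% of all genes in that setting. Among the platelet receptor genes, 16 of 21 were tested.

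The granule genes did not change as a block. With limma across 12088 genes and Benjamini–Hochberg adjustment, the adhesive cargo gene *Vwf* fell, and *Selp* and *Rab27b* rose. These are 2 of 8 tested genes called higher, against 4.59% of all genes tested, and 1 of 8 called lower, against 3.18%. For 6 of the 8 the groups were fully apart, with 4 higher with dox (*Selp*, *Srgn*, *Rab27b* and *Plek*) against 17.7% of all genes, and 2 lower (*Vwf* and *Thbs1*) against 18.2%. With reads scaled to the total of each library instead, *Thbs1* overlapped, leaving 1 gene fully apart lower against 13.1% of all genes, and 4 higher against 23.1%. An unadjusted p under 0.05 was found for 6 of the 8, against 29.2% of all genes. The median log2 fold change of the 8 was 0.47, beside -0.03 for all genes tested. None of the 3 calls held in every fit with 1 library left out. Between 0 and 3 of the genes were then called higher and between 0 and 2 lower. Over all genes tested these fits called 92 to 1801 higher and 36 to 1687 lower, against 555 and 384 with all libraries. The log2 fold changes ranged from -1.46 to -1.19 for *Vwf*, 1.02 to 1.39 for *Selp* and 1.04 to 1.31 for *Rab27b*. With 3 libraries against 3, a two-sided exact permutation test of a single gene cannot give a p under 0.1. In bulk samples, fewer cells of a type and less RNA per cell cannot be told apart.

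**Figure D1:**
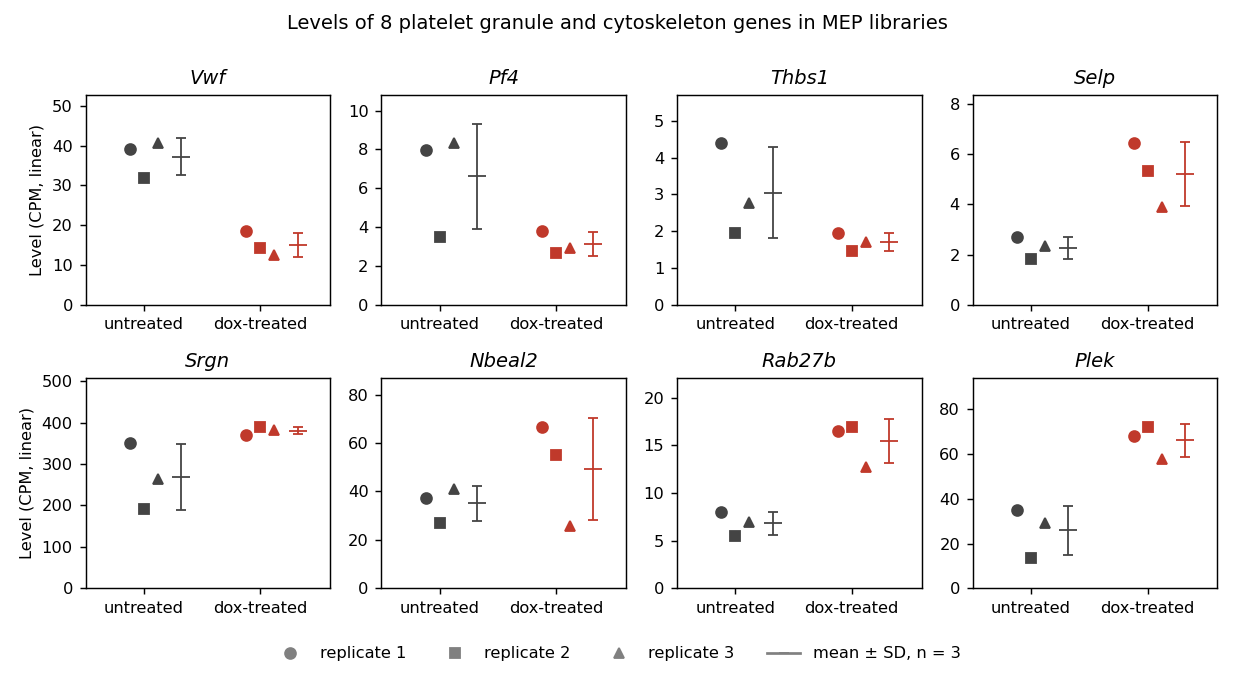
Expression of the 8 granule and cytoskeleton genes with values, in CPM on linear axes that start at 0, for 3 untreated (grey) and 3 dox-treated (red) libraries; each point is 1 library, its shape gives the replicate number, and the bars are the mean ± SD. The groups overlap for *Pf4* and *Nbeal2* and are apart for the other 6 genes, by 1.951 against 1.958 CPM at the nearest for *Thbs1*.

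*Vwf* encodes von Willebrand factor, the multimeric protein that tethers platelets to damaged vessel walls and that is stored in alpha granules. It lies on chromosome 6 of NCBIM37 (chr6:125496792-125636697, plus strand). Treated replicates 1, 2 and 3 had 250, 191 and 196 *Vwf* reads, and untreated replicates 1, 2 and 3 had 503, 430 and 446. Every treated library was below every untreated library. The level was 15.1 ± 3.01 CPM under dox and 37.2 ± 4.72 CPM in untreated MEPs (SD over n = 3 libraries), and was 2.48-fold lower as a ratio of geometric means. On the log2 scale the change was -1.31 (standard error 0.18, 95% interval -1.76 to -0.86, adjusted p = 0.018, limma), and the exact permutation p was 0.1, the smallest possible. Without treated replicate 2, untreated replicate 1 or untreated replicate 3 the adjusted p was 0.078, 0.072 or 0.077, with limma, while without treated replicate 3 the log2 fold change was -1.19 and the adjusted p 0.017.

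*Pf4* encodes platelet factor 4, an alpha granule chemokine that is a classical product of the megakaryocyte. The gene is at chr5:91201461-91202407 on the plus strand. It had 51, 35 and 45 reads in the treated replicates and 102, 47 and 91 in the untreated replicates. The groups overlapped, because treated replicate 1 at 3.79 CPM lay above untreated replicate 2 at 3.51 CPM. The means were 3.12 ± 0.600 CPM under dox and 6.60 ± 2.68 CPM in untreated MEPs (SD over n = 3 libraries). The log2 fold change of -1.0 (standard error 0.37, 95% interval -1.89 to -0.10) did not pass the adjusted threshold (adjusted p = 0.138, limma, and exact permutation p = 0.2). Without untreated replicate 2 the log2 fold change was -1.40 and the adjusted p 0.044, and without any 1 of the other libraries the adjusted p was 0.160 to 0.339, with limma.

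*Thbs1* encodes thrombospondin-1, an adhesive glycoprotein released from alpha granules (chr2:117937612-117952869, plus strand). It had the fewest reads of the 8 genes in every treated library, while *Selp* had fewer in every untreated library. There were 26, 19 and 26 *Thbs1* reads with dox and 56, 26 and 30 without dox. The exact Poisson 95% interval on 26 reads is 17.0 to 38.1, which holds the reads of 5 of the 6 libraries and leaves out only those of untreated replicate 1. Treated replicates 1 and 3 and untreated replicate 2 all had 26 reads, and the groups were apart in CPM by less than 1 read. Per 1000000 reads of the library total they overlapped, at 2.06 in treated replicate 1 and 1.82 in untreated replicate 2. Its level was 1.70 ± 0.25 CPM under dox and 3.04 ± 1.24 CPM in untreated MEPs (SD over n = 3 libraries), with a change on the log2 scale of -0.77 (standard error 0.31, 95% interval -1.52 to -0.02) that did not pass (adjusted p = 0.163, limma).

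*Selp* encodes P-selectin, the leukocyte adhesion receptor that sits in the alpha granule membrane and moves to the platelet surface on activation. It is at chr1:166045395-166080157 on the plus strand. The treated replicates held 87, 71 and 60 *Selp* reads and the untreated replicates 34, 24 and 25, so the lowest treated library had more reads than the highest untreated one. The level rose (2.28-fold as a ratio of geometric means), from 2.27 ± 0.438 CPM to 5.22 ± 1.28 CPM (SD over n = 3 libraries). On the log2 scale the change was 1.19 (standard error 0.24, 95% interval 0.60 to 1.77, adjusted p = 0.041, limma). Without treated replicate 3 it was 1.39 with an adjusted p of 0.017, and without any 1 of the other 5 libraries the adjusted p lay between 0.082 and 0.144, with limma. Of its 4413 exon bases, 438 are also covered by *Gm16548* and 186 by *Gm16587* on the opposite strand. The labels name the NEBNext Ultra kit, which in its standard form does not mark strand, and whether strand was used in counting is not given in the sources used here. Reads from those bases may therefore belong to either gene.

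*Srgn* encodes serglycin, the proteoglycan core that retains cargo such as PF4 in granules of platelets, mast cells and leukocytes (chr10:61956581-61990199, minus strand). It was by far the most abundant of the genes, with 5040, 5238 and 5942 reads with dox and 4495, 2591 and 2899 without dox. All treated libraries were above all untreated ones, but the nearest were 371.1 and 349.6 CPM. The group means were 380.8 ± 9.43 CPM under dox and 268.3 ± 79.1 CPM in untreated MEPs (SD over n = 3 libraries). The untreated libraries thus differed among themselves by more than the treated ones, and the log2 fold change of 0.55 (standard error 0.22) did not pass (adjusted p = 0.171, limma).

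*Nbeal2* encodes a BEACH-domain protein needed for alpha granule formation, whose loss in people causes gray platelet syndrome (chr9:110527293-110556665, minus strand). It had 906, 740 and 403 reads with dox and 477, 367 and 452 without dox. Treated replicate 3, at 25.9 CPM, was below all untreated libraries, which held 27.2 to 41.2 CPM, while treated replicates 1 and 2 were above them. On the log2 scale the change was 0.40 (standard error 0.38, 95% interval -0.54 to 1.34, adjusted p = 0.513, limma). Without treated replicate 3 it was 0.81 with an adjusted p of 0.0495, and without treated replicate 1 it was 0.13 with an adjusted p of 0.878, with limma.

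*Rab27b* encodes the small GTPase that docks platelet granules, dense granules above all, at the plasma membrane before secretion (chr18:70138785-70301259, minus strand). Reads numbered 224, 227 and 198 in the treated replicates and 102, 74 and 76 in the untreated replicates. The treated libraries, at 12.7 to 16.9 CPM, lay above the untreated ones, at 5.51 to 7.97 CPM. The level rose (2.27-fold as a ratio of geometric means), from 6.81 ± 1.24 CPM to 15.4 ± 2.31 CPM (SD over n = 3 libraries), or by 1.18 on the log2 scale (standard error 0.19, 95% interval 0.72 to 1.64, adjusted p = 0.024, limma). Without treated replicate 3 the adjusted p was 0.014, and without any 1 of the other libraries it was 0.060 to 0.096, with limma.

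The closest relative of *Rab27b*, *Rab27a*, which serves granule release in melanocytes and leukocytes, had 807, 793 and 270 reads with dox and 622, 233 and 345 without dox. Its log2 difference of 0.41 (standard error 0.60) did not pass (adjusted p = 0.679, limma). In treated replicate 3 the level of *Rab27a* was 17.4 CPM, against 59.5 and 59.1 CPM in treated replicates 1 and 2, and without it the log2 difference was 1.0 (adjusted p = 0.148, limma). The reads of *Rab27b* per read of *Rab27a* were 0.278, 0.286 and 0.733 with dox and 0.164, 0.318 and 0.220 without dox, and overlapped between the groups.

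*Plek* encodes pleckstrin, the main substrate of protein kinase C in platelets, and is at chr11:16871209-16952384 on the minus strand. It had 923, 968 and 902 reads with dox and 449, 185 and 320 without dox. No treated library was below any untreated one, and the nearest were 57.9 and 35.0 CPM. The level was 66.0 ± 7.30 CPM under dox and 25.9 ± 11 CPM in untreated MEPs (SD over n = 3 libraries), 2.73-fold apart as a ratio of geometric means. The log2 fold change of 1.45 (standard error 0.36, 95% interval 0.57 to 2.33) did not pass the adjusted threshold (adjusted p = 0.064, limma), and without treated replicate 3 it was 1.54 (adjusted p = 0.054, limma). *Plek* shares 199 of its 4486 exon bases with *Cnrip1* on the opposite strand, which had 123, 153 and 17 reads with dox and 4, 2 and 4 without dox, so the part of those reads in the *Plek* values was not tested.

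**Figure D2:**
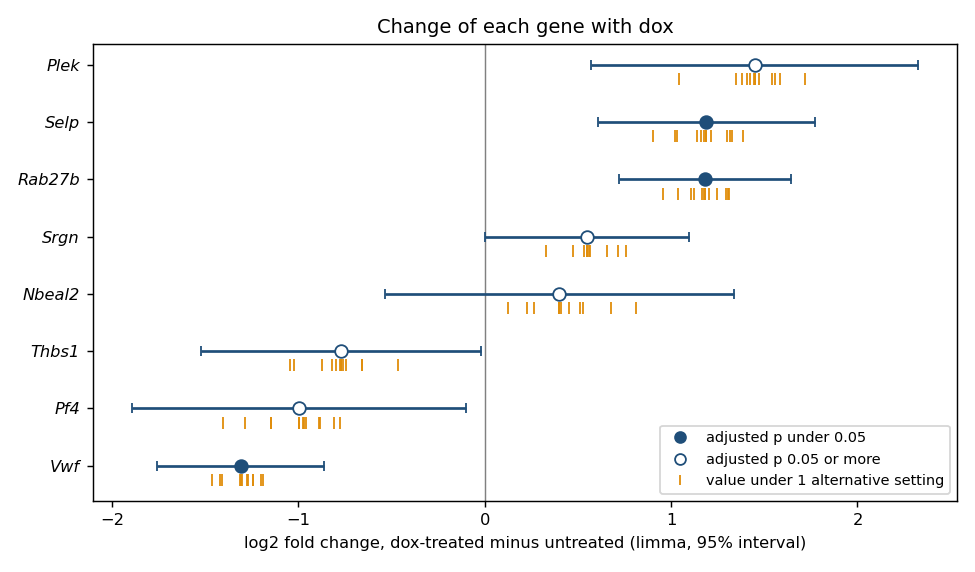
Log2 fold change of each gene, dox-treated minus untreated, from limma, with bars for the 95% interval, filled circles for an adjusted p under 0.05 and ticks for the value under each alternative setting. *Vwf* is at -1.31 and *Selp* and *Rab27b* are at 1.19 and 1.18, and the intervals of *Srgn* and *Nbeal2* reach 0.

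Compared per length of the union of exons, which sums the exons of all transcripts, *Srgn* stood above the others, at 122.2 ± 36.0 CPM per kilobase (SD, n = 3) without dox. In untreated MEPs *Pf4* followed at 11.2 ± 4.57, *Plek* at 5.77 ± 2.45, *Nbeal2* at 3.68 ± 0.754 and *Vwf* at 2.31 ± 0.294, and *Rab27b*, *Selp* and *Thbs1* were all below 1 CPM per kilobase. The ranges over libraries of *Pf4* and *Plek* overlapped, as did those of *Plek* and *Nbeal2*, and those of *Rab27b*, *Selp* and *Thbs1* all overlapped each other. With dox the order of the mean levels was *Srgn* at 173.4 ± 4.29, *Plek* at 14.7 ± 1.63, *Pf4* at 5.26 ± 1.02, *Nbeal2* at 5.15 ± 2.20, *Rab27b* at 1.44 ± 0.217, *Selp* at 1.17 ± 0.290, *Vwf* at 0.938 ± 0.187 and *Thbs1* at 0.274 ± 0.0412 (SD, n = 3, CPM per kilobase). With dox the ranges of *Pf4* and *Nbeal2* overlapped, as did those of *Rab27b* and *Selp* and of *Selp* and *Vwf*. *Vwf* stood above *Rab27b* and *Selp* in every untreated library. With dox its range of 0.783 to 1.15 CPM per kilobase was below that of *Rab27b*, at 1.19 to 1.58, and overlapped that of *Selp*, at 0.873 to 1.45.

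The balance between pairs of these genes was described within each library, where the scaling of libraries drops out. The pairs were chosen after the values had been seen, so the ratios restate the values above and carry no test. There were 14.8, 17.9 and 17.8 *Vwf* reads for each *Selp* read in the untreated replicates and 2.87, 2.69 and 3.27 in the treated replicates. *Pf4* reads per *Selp* read were 3.0, 1.96 and 3.64 without dox and 0.586, 0.493 and 0.750 with dox. *Plek* reads per *Vwf* read were 0.893, 0.430 and 0.718 without dox and 3.69, 5.07 and 4.6 with dox. None of these 3 ratios overlapped between the groups.

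**Figure D3:**
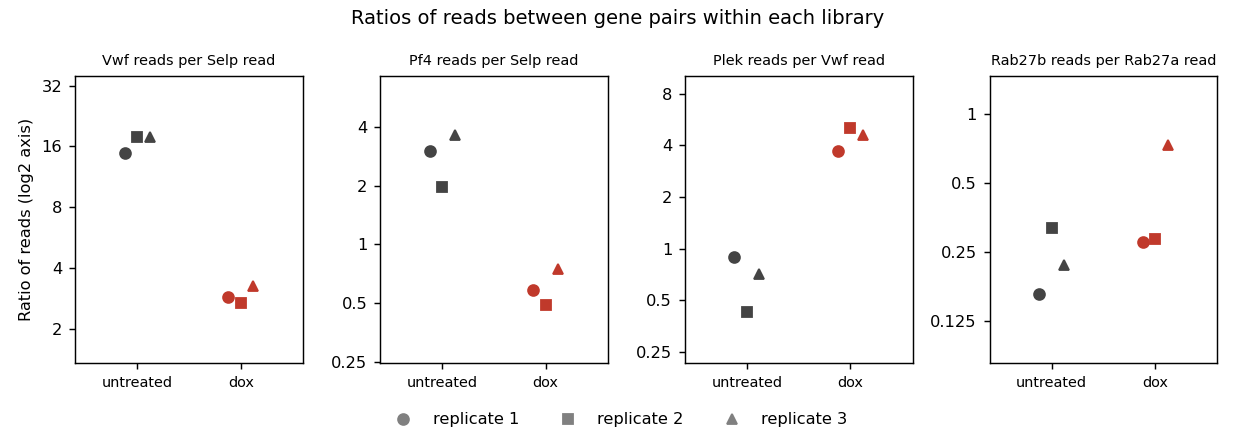
Reads of 1 gene per read of another within each library, on a log2 axis, for the 3 treated and 3 untreated libraries; each point is 1 library. The ratios of *Vwf* and *Pf4* to *Selp* and of *Plek* to *Vwf* do not overlap between groups, and the ratio of *Rab27b* to *Rab27a* overlaps.

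Sequence just upstream of the transcription start was examined for the genes that have an entry in the RefSeq promoter table, 7 of the 10 (8 windows of 250 bases, GRCm38.p6). Each window printed below has 1 exact match on NCBIM37, whose coordinates are given. Short words of several kinds were searched on both strands: AGATAA or AGATAG or TGATAA or TGATAG for GATA factors, AGGAAG or CGGAAG for ETS factors, TGTGGT for RUNX factors and TAATGG for NANOG. The ETS words were in the windows of *Pf4*, *Selp*, *Nbeal2*, *Tubb1* and the upstream start of *Srgn*, and 39.2% of all 32851 windows of the same length hold one. The windows of *Pf4* and *Selp* are shown because one gene had the lower and the other the higher mean with dox, and those of *Srgn* and *Nbeal2* as the other genes with values whose windows hold an ETS word. Capitals mark the word as it stands on the strand of the gene. It is CGGAAG in *Srgn* and AGGAAG in *Nbeal2*, and in *Pf4* and *Selp* it reads AGGAAG on the opposite strand. The word was 9 to 4 bases upstream of the start in *Pf4* and in *Nbeal2*, 64 to 59 in *Selp* and 51 to 46 in *Srgn*. A match is a description of letters and not of binding.
Pf4 (chr5:91201211-91201460, plus): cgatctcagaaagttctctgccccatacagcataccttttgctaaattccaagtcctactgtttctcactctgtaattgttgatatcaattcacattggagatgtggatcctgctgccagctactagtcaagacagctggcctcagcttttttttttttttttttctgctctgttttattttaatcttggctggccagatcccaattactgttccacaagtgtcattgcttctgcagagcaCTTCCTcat
Selp (chr1:166045145-166045394, plus): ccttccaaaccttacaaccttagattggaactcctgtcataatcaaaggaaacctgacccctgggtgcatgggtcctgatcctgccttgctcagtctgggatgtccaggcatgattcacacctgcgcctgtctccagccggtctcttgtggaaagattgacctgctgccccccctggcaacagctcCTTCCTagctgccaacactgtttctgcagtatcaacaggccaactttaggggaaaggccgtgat
Srgn (chr10:61990194-61990443, minus): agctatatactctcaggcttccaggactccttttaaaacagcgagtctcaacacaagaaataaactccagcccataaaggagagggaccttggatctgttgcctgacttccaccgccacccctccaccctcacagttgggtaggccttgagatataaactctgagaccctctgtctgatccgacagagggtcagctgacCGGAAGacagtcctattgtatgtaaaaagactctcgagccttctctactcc
Nbeal2 (chr9:110556666-110556915, minus): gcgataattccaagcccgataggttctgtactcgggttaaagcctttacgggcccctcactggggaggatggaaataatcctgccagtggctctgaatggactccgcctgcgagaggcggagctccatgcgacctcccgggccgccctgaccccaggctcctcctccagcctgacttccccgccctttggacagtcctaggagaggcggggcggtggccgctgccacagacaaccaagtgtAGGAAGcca
No GATA word, held by 26.5% of all windows, and no NANOG word, held by 6.57%, was in any of the 8 windows. The RUNX word, held by 14% of all windows, was in that of the second start of *Srgn* alone. The windows of *Plek* and *Ppbp* held none of the words. The RefSeq start of *Plek* and the second start of *Srgn* lie inside the genes as annotated on NCBIM37, so those windows are not upstream of the annotated gene start.

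The genes around them were read from lists of granule, cytoskeleton and receptor genes. Calls of higher genes in these lists changed with the libraries used, as did those over all genes. With any 1 library other than treated replicate 3 left out, limma called 0 cargo, biogenesis or secretion genes and 1 receptor gene higher. Over all genes 92 to 143 were then called higher, against 555 with all libraries. Without treated replicate 3 the counts were 7, 4, 6 and 10 of 24, 33, 28 and 16 tested genes, against 14.9% of all genes in that setting. Calls of lower genes over all these settings numbered 0 to 3 for cargo and 0 to 4 for secretion, against 36 to 1687 of all genes. With treated replicate 3 left out, 6 of 41 cytoskeleton genes were called higher, against 14.9% of all genes, and 4 lower, against 14%. Of 24 tested alpha granule cargo genes, 4 rose and 3 fell, against 4.59% and 3.18% of all genes, with a median log2 fold change of 0.08. Besides *Selp*, *Mmrn1*, which encodes multimerin-1, the carrier of factor V, rose from 5.52 ± 2.53 to 36.1 ± 15.8 CPM (SD over n = 3 libraries; log2 fold change 2.72, adjusted p = 0.039, limma, and 3.16 and 0.017 without treated replicate 3). *Angpt1*, encoding the ligand of the receptor TEK, rose from 35.4 ± 16.1 to 154.9 ± 40.9 CPM (SD over n = 3 libraries; log2 fold change 2.22, adjusted p = 0.040, limma), and *Egf* rose by 0.89 on the log2 scale (adjusted p = 0.039, limma). *F13a1*, the factor XIII A subunit, fell by 2.92 on the log2 scale (adjusted p = 0.015, limma), and *Ccl5*, a chemokine, by 2.27 (adjusted p = 0.024, limma). *F13a1* is also one of 23 tested neutrophil and monocyte markers, of which 15 fell and 0 rose, against 3.18% and 4.59% of all genes, with a summed level of 584.4 to 869.4 CPM with dox and 2723 to 6212 CPM without dox, and their part in the *F13a1*, *Ccl5* and *Thbs1* values was not tested. The sort used a lineage cocktail and CD16/32, which are meant to exclude mature myeloid cells and granulocyte–macrophage progenitors. Its purity is not given in the sources used here.

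In the granule biogenesis list 1 of 33 tested genes was called higher, against 4.59% of all genes, and 0 lower. It was *Slc18a2*, the vesicular monoamine transporter that fills dense granules, which rose from 19.5 ± 4.47 to 55.4 ± 15.8 CPM (SD over n = 3 libraries; log2 fold change 1.5, adjusted p = 0.032, limma). It is also a mast cell and basophil marker. Of the 8 tested genes of that list 3 rose, *Slc18a2*, *Cpa3* and *Ms4a2*, against 4.59% of all genes, and 0 fell, against 3.18%. Fully apart were 4 of the 8 on the higher side, against 17.7% of all genes, and 2 on the lower, *Kit* and *Gzmb*, against 18.2%. *Gzmb*, a granzyme gene, was at 0.455 ± 0.473 CPM under dox and 3.30 ± 0.559 CPM in untreated MEPs (SD over n = 3 libraries; adjusted p = 0.053, limma). *Cpa3*, a mast cell protease gene, rose from 7.15 ± 2.63 to 52.6 ± 7.56 CPM (SD over n = 3 libraries; adjusted p = 0.0096, limma). *Ms4a2*, a subunit gene of the IgE receptor, rose from 3.02 ± 1.15 to 20.4 ± 8.45 CPM (SD over n = 3 libraries; adjusted p = 0.022, limma). These mast cell genes were named after their values were seen. The summed level of the 8 was 549.7 to 575.9 CPM with dox and 439.4 to 612.5 CPM without dox, of which *Kit*, a marker used in the sort, held 315.6 and 418.8 CPM on average. The part of these cells in the *Slc18a2*, *Srgn* and *Rab27b* values was not tested. Of 28 tested granule secretion genes 2 rose and 1 fell, against 4.59% and 3.18% of all genes. *Prkca* rose by 2.57 on the log2 scale (adjusted p = 0.041, limma) and *Rab27b* by 1.18 (adjusted p = 0.024, limma), and *Prkcb* fell by 2.28 (adjusted p = 0.011, limma). *Prkca* and *Prkcb* encode protein kinase C isoforms, and pleckstrin is a substrate of this kinase family. *Prkca* had 811, 807 and 292 reads with dox and 109, 63 and 89 without dox, and leaving out treated replicate 3 gave a log2 change of 3.12 (adjusted p = 0.0070, limma). The level of *Prkcb* was 1.05 ± 0.287 CPM under dox and 5.06 ± 0.962 CPM in untreated MEPs (SD over n = 3 libraries).

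Of 41 tested genes of the megakaryocyte and proplatelet cytoskeleton, 2 fell and 0 rose, against 3.18% and 4.59% of all genes tested. With any 1 library other than treated replicate 3 left out, 0 were called lower, against 36 to 126 of all 12088 genes. *Myh10*, the nonmuscle myosin heavy chain IIB, fell from 435.9 ± 9.17 to 193.3 ± 63.4 CPM (SD over n = 3 libraries; log2 fold change -1.22, adjusted p = 0.039, limma). *Tuba4a*, an alpha-tubulin, fell from 332.4 ± 0.399 to 204.9 ± 36.7 CPM (SD over n = 3 libraries; log2 fold change -0.71, adjusted p = 0.044, limma). The other 39 did not pass, at an adjusted threshold of 0.05 in limma. Of the 41, 11 had an unadjusted p under 0.05, against 29.2% of all genes. With voom weights 3 were called higher and with a mean-variance trend 4, against 615 and 909 of all 12088 genes. Among relatives of the 10 genes, *Tubb3*, a neuronal beta-tubulin, fell by 1.90 on the log2 scale (adjusted p = 0.018, limma) at 2.41 ± 0.894 CPM (SD, n = 3) without dox, and *Nbeal1* rose by 0.71 (adjusted p = 0.040, limma). They were 1 lower and 1 higher of 11 tested relatives, against 3.18% and 4.59% of all genes. The lower call was lost without treated replicate 1, treated replicate 2 or untreated replicate 3, and the higher call without any 1 library other than treated replicate 3. *Nbea*, another relative of *Nbeal2*, had a change on the log2 scale of 1.3 (standard error 0.61, adjusted p = 0.215, limma) with 42, 105 and 22 reads with dox and 21, 18 and 11 without dox. *Plek2* was not analysed here.

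Platelet receptors, which face the outside of the platelet, rose in 5 of 16 tested genes and fell in 0, against 4.59% and 3.18% of all genes, with a median log2 fold change of 0.73. *Cd36*, a receptor for thrombospondin-1, rose from 6.54 ± 0.943 to 26.3 ± 7.09 CPM (SD over n = 3 libraries; log2 fold change 1.98, adjusted p = 0.012, limma). *Gp9* and *Gp1ba*, subunits of the receptor for von Willebrand factor, rose by 1.28 and 0.90 on the log2 scale (adjusted p = 0.032 and 0.049, limma). *Gp1bb*, another subunit, went the other way, at -1.32, with groups fully apart, but did not pass (adjusted p = 0.096, limma). It had 9, 6 and 15 reads with dox and 37, 18 and 14 without dox. *Gp5*, at 0.49, did not pass either (adjusted p = 0.076, limma). *Ptger3* and *Itgb1* rose by 1.22 and 0.57 (adjusted p = 0.045 for both, limma). *Gp1ba*, *Gp1bb* and *Gp5* were named after their values were seen. Megakaryocyte regulators had 0 of 18 tested genes called in either direction, against 4.59% higher and 3.18% lower of all genes. An unadjusted p under 0.05 was found for 10 of the 18, against 29.2% of all genes. Voom weights called 1 higher, the trend 3 and array quality weights 7, against 615, 909 and 2515 of all 12088 genes. Array quality weights also called 3 lower, against 2601 of all genes. Without treated replicate 3, 6 were called higher and 1 lower, against 14.9% and 14% of all genes.

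*Vwf* and *Selp* are also expressed in endothelial cells and in stem cells. Of 11 tested endothelial markers 3 rose and 0 fell, against 4.59% and 3.18% of all genes, with a summed level of 326.2 to 481.7 CPM with dox and 282.2 to 325.8 CPM without dox, and *Cdh5*, *Cldn5* and *Nos3* were not analysed here. Of 10 tested stem cell markers 1 rose and 0 fell, against the same shares, at 312.4 to 511.9 CPM with dox and 135.7 to 229.0 CPM without dox. With treated replicate 3 left out, 5 of 11 endothelial and 8 of 10 stem cell markers were called higher and 0 lower, against 14.9% and 14% of all genes. A sort for lineage-, Sca1- and cKit+ cells is meant to exclude Sca1+ stem cells and cKit- endothelial cells. How pure the sort was is not given in the sources used here. The part of either cell type in the *Vwf* and *Selp* values was not tested.

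**Figure D4:**
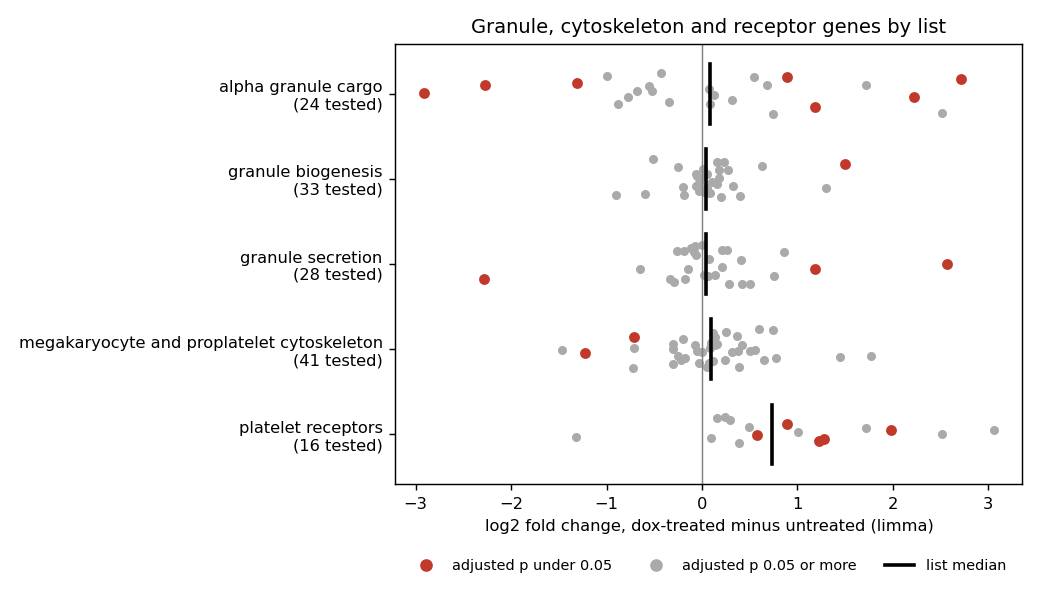
Log2 fold change, dox-treated minus untreated, of the tested genes of 5 lists; each point is 1 gene, with red for an adjusted p under 0.05 and a bar at the median of the list. Medians lie at 0.08, 0.04, 0.05, 0.10 and 0.73 from top to bottom, beside -0.03 over all genes tested.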

How the data were processed

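RNA-seq was performed on MEPs sorted by flow cytometry from 3 dox-treated and 3 untreated replicates. Per the labels and the study's methods, the authors trimmed reads with Cutadapt, obtained expression with RSEM against Ensembl transcripts of NCBIM37, then used limma to normalize. The authors deposited log2 values of CPM with 0.5 reads added, for 12101 genes. Whether counting was stranded is not given in the sources used here. The reads behind each value were recovered (100% whole within 0.0001 reads) and served for depth, for intervals and for precision weights.

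Of the listed identifiers, 12067 were named by the NCBIM37 annotation, which also gave the exon lengths. Testing covered the 12088 genes that reached 1 CPM in 3 or more libraries, and was done with limma 3.58.1 (R 4.3.3; lmFit and eBayes on the deposited values, no block or weights) and Benjamini–Hochberg adjustment at 0.05, after tests on simulated data. Fold changes carry the 0.5 added reads, so changes of weakly expressed genes are understated. An exact two-sided permutation test was run on each member. Upstream windows were taken from RefSeq. Other computations used Python 3.11.15, pandas 2.3.3, scipy 1.17.1 and matplotlib 3.10.9.

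The members and the gene lists were chosen with earlier results of these data known. Genes named are the 10 members, up to 4 genes by smallest p in each direction past the threshold in each granule, cytoskeleton, receptor and relative list, the relatives *Rab27a*, *Nbea* and *Plek2*, and *Nanog*. *Cnrip1* and the antisense genes were named for their overlap. *Gp1ba*, *Gp1bb*, *Gp5*, *Cpa3*, *Ms4a2*, *Gzmb*, *Kit* and the endothelial genes given as not analysed here were named outside this rule, after the values had been seen. Alternatives changed the added reads, filter, scaling, variance model, weights and block, and left out each library in turn. Their use for the list counts, and total-read scaling for the overlap of groups, were chosen after seeing the data.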

Additional observations from a re-analysis of the deposited data

How the results depend on the processing

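All 117 alternative values of the 8 fold changes, over 15 alternatives, kept their direction, and the alternatives' adjusted p-values often crossed the threshold. Array quality weights called 4 of the 8 genes higher and 3 lower, with *Pf4* at -1.15, *Thbs1* at -0.82, *Nbeal2* at 0.68 and *Plek* at 1.35 past the threshold, against 2515 genes higher and 2601 lower in all. *Plek* also passed at 1.45 with the 5 CPM filter, 1.41 with quantile normalization, 1.45 with a mean-variance trend and 1.47 with voom weights, under which *Selp* at 1.18 did not (adjusted p = 0.065, limma). The 5 CPM filter left out *Pf4*, *Selp* and *Thbs1*. The labels do not say whether replicate numbers pair the samples. Correlations of deviations for the same number were 0.018, -0.121 and -0.299, against -0.204 to 0.238 for different numbers. They cannot decide whether samples are paired, since deviations from a mean of 3 libraries are tied to each other. With the replicate number as a block 0 of the 8 genes were called in either direction (*Vwf* -1.31, adjusted p = 0.076, *Selp* 1.19, 0.098, and *Rab27b* 1.18, 0.094, limma), and 53 genes were called higher and 29 lower in all. Leaving out each library in turn gave 0 to 3 of the 8 genes higher and 0 to 2 lower, with 92 to 1801 genes higher and 36 to 1687 lower, and the log2 fold changes ranged from -1.40 to -0.78 for *Pf4*, -1.46 to -1.19 for *Vwf*, 1.02 to 1.39 for *Selp*, -1.05 to -0.47 for *Thbs1*, 0.33 to 0.76 for *Srgn*, 0.13 to 0.81 for *Nbeal2*, 1.04 to 1.31 for *Rab27b* and 1.04 to 1.72 for *Plek*. The highest count of the 8 genes called higher was without treated replicate 3, and of those called lower without untreated replicate 2. Scaling to total reads left 1 of the 8 genes fully apart lower, in place of 2, moved the median of all genes by 0.11 and gave 631 higher and 286 lower, and the mean-variance trend gave 909 and 747.

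The lists held 24 tested genes of alpha granule cargo, 33 of granule biogenesis, 28 of granule secretion and 41 of cytoskeleton. Receptors had 16, regulators 18 and relatives 11, beside 12088 genes in all. Array quality weights gave 8 higher and 7 lower for cargo, 4 and 3 for biogenesis, 7 and 5 for secretion and 12 and 8 for cytoskeleton. They gave 11 and 1 for receptors, 7 and 3 for regulators and 5 and 3 for relatives, against 2515 and 2601 genes in all. With the replicate block, 0 genes of any of these lists were called, except 1 lower in granule secretion, against 53 higher and 29 lower in all. The 5 CPM filter left 31 tested genes of biogenesis, 26 of secretion, 37 of cytoskeleton, 18 of regulators and 8 of relatives. It gave 2 higher for biogenesis, 0 lower for secretion, 3 higher for cytoskeleton, 1 higher for regulators and 2 higher and 0 lower for relatives. Of the 9979 genes it left in all, 683 were higher and 462 lower. Cytoskeleton had 1 higher with total-read scaling, 3 with quantile normalization, 4 with the trend and 3 with voom weights, against 631, 648, 909 and 615 of all genes. Receptors had 8 higher with the trend, regulators 3 with the trend and 1 with voom weights, and relatives 2 with quantile normalization, the trend, voom weights and 2 added reads. With 2 added reads, 577 of all genes were higher. Leaving out each library gave 0 to 7 higher and 0 to 3 lower for cargo, 0 to 4 and 0 to 1 for biogenesis, 0 to 6 and 0 to 4 for secretion, 0 to 6 and 0 to 4 for cytoskeleton, 1 to 10 and 0 to 1 for receptors, 0 to 6 and 0 to 1 for regulators and 0 to 3 and 0 to 2 for relatives. Over all genes these fits gave 92 to 1801 higher and 36 to 1687 lower. The cause of these shifts was not tested. Depth limits *Thbs1*, *Selp* and *Pf4* most, with 19 to 102 reads per library.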
